A study of Mus musculus with 33 samples.

Results

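The nuclear genes of the mitochondrial respiratory chain were followed in frontal cortex of C57BL/6 mice at about 1 month of age. They were taken by symbol as all genes that start with Nduf, Uqcr, Atp5 or Cox4 to Cox8, plus Sdha, Sdhb, Sdhc, Sdhd and Cyc1. This gave 93 of the 23366 genes counted, of which 89 had CPM (counts scaled to a fixed library size) that summed to at least 5 over the libraries of each count table. Of these 89 genes, 37 belong by name to complex I, 7 are complex I assembly factors, 4 belong to complex II, 9 to complex III, 15 to complex IV and 17 to complex V. The 4 genes left out were Ndufs5, Cox7b2, Cox8b and Cox8c, and Cox7b2 lay just outside the limit with summed CPM of 4.37 and 5.54 in the female and male tables. Atp5l lay just inside it with 5.78 and 7.76. Names can mislead here: Atp5s and Atp5sl carry the Atp5 prefix but are coupling and assembly factors, Ndufa4 is now counted as a complex IV subunit, and Cox7a2l helps to join complexes III and IV.

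Complexes I to IV pass electrons from NADH and succinate to oxygen and, except for complex II, pump protons out of the mitochondrial matrix. Complex V, the ATP synthase, lets protons flow back and makes ATP. Cortical neurons depend on this supply for firing and synaptic transmission, and most subunits are encoded in the nucleus. The 13 subunits encoded by mitochondrial DNA were also looked for, and 0 of them had a row in the count tables used here.

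All groups were offspring of C57BL/6 dams. Control dams, and later dams with pups, inhaled filtered air, the ExposedNic group inhaled aerosol of e-cigarettes with nicotine at 13 to 16 mg/mL, and the ExposednoNic group inhaled aerosol of e-cigarettes free of nicotine. Exposure ran by whole body inhalation through gestation and, from a few days after birth, through lactation, and each litter gave at most 1 pup to a sex table. The female table held 6 Control, 5 ExposedNic and 5 ExposednoNic libraries, and in males these groups held 6, 6 and 5. The sexes were sequenced in separate runs, so that sex and run cannot be told apart and levels were compared only within a table.

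Total counts per library ranged from 19150562 to 27513174 in the female and from 17845672 to 24787955 in the male table. The library labelled male ExposedNic replicate 21 carried 219 CPM of Xist and 1 count over Uty, Kdm5d, Ddx3y and Eif2s3y, which lie on the Y chromosome, while the other 16 libraries labelled male had at most 0.246 CPM of Xist and at least 110.2 CPM over those Y-linked genes, so results of that group are also given without it. Markers of cortical glutamatergic neurons were present in every library, as the tissue label asks, but at levels that differed between groups. Their 12 genes summed to 3764 to 4824 CPM in female Control, 2516 to 3411 in ExposedNic and 1563 to 3542 in ExposednoNic libraries. In the male libraries of the same groups the sums were 3508 to 4158, 2518 to 3459 and 1379.6 to 2519. In bulk tissue, fewer cells of a type and less RNA per cell cannot be told apart.

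Promoter windows are shown first as background. Respiratory chain genes are known targets of nuclear respiratory factor 1 (NRF1), GA-binding protein (an ETS factor), YY1 and estrogen-related receptors (ERR). Whether these factors had a part in the changes below was not tested. RefSeq windows of 250 bases before to 50 bases after the start site (build GRCm38.p6) matched 73 of the 89 genes. Each motif was searched on both strands, so that its reverse complement counts too. The NRF1 motif GCGCANGCG was found in 28.8% of members against 7.03% of all genes with a window. The YY1 motif AAGATGGC was found in 15.1% of members against 3.19% of all genes, the ETS motif CCGGAAGT in 6.85% of members against 4.31% of all genes, and the ERR motif TCAAGGTCA in 2.74% of members against 0.466% of all genes. At least 1 of the 4 motifs was present for 34 of 73 members (46.6%) and for 13.7% of the 27025 genes with a window. These 27025 genes were not limited to the genes tested here. NRF1 matches on opposite strands can overlap and were counted once per gene, and a gene with several windows was counted when any window held the motif. A match is a description of letters and not a measured binding site.

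The following windows belong to genes that rose in ExposednoNic libraries of both tables (Ndufa6, Ndufb5, Atp5g3, Atp5o) or had small p-values in males (Ndufa11, Ndufs7). They read from 5′ to 3′ on the strand of the gene, with motif letters in capitals.
Ndufa6 (chr15:82354242-82354541, minus strand): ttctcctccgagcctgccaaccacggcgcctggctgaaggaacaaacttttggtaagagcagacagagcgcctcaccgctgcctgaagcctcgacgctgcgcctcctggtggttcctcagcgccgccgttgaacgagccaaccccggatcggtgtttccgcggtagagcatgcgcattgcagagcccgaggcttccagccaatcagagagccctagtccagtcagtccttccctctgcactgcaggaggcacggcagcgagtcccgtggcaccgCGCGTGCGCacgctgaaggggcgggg
Ndufb5 (chr3:32736813-32737112, plus strand): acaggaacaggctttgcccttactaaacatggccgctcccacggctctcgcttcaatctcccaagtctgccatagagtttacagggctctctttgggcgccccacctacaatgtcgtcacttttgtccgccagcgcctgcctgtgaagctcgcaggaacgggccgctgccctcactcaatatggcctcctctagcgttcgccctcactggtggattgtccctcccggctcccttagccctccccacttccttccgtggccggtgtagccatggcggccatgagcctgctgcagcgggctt
Atp5g3 (chr2:73911277-73911576, minus strand): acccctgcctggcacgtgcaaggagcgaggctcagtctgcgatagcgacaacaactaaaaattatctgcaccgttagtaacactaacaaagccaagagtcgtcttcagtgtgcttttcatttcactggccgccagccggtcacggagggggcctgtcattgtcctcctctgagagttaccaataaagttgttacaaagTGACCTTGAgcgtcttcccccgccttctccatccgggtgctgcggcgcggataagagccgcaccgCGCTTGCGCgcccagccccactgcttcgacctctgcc
Atp5o (chr16:91931581-91931880, minus strand): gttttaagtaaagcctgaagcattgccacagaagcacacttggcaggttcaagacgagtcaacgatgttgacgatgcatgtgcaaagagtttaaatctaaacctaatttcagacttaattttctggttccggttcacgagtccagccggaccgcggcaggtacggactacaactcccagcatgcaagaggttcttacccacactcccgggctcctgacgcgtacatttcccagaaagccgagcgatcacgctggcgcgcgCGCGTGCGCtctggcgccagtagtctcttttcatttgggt
Ndufa11 (chr17:56717512-56717811, plus strand): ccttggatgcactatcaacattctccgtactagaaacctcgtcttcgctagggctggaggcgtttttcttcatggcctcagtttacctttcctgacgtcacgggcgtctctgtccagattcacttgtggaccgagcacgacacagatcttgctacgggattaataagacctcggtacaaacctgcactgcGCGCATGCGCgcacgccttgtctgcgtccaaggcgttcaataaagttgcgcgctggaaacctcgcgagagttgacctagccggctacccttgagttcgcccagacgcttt
Ndufs7 (chr10:80249199-80249498, plus strand): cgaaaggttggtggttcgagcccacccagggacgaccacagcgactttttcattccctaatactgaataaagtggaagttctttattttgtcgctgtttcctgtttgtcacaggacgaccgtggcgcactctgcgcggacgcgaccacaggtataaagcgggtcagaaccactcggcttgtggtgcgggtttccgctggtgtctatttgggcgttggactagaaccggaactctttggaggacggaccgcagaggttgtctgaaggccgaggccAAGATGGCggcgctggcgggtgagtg
The capitals mark NRF1 matches in Ndufa6, Atp5o and Ndufa11, an ERR match followed by an NRF1 match in Atp5g3, and a YY1 match in Ndufs7. None of the 4 motifs was found in the Ndufb5 window. RefSeq windows matched no entry for Sdhc and Cyc1.

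In air controls, levels per kilobase of exon spread widely over the chain. Cox4i1, the main isoform of a regulatory complex IV subunit, was highest at 877 ± 58.6 CPM per kb (SD, n = 6) in female and 776 ± 30.2 in male controls. Within the other complexes the highest were Ndufb9 of complex I at 389.7 ± 32.5, Atp5a1, the alpha subunit of the ATP synthase, at 353 ± 4.89, Cyc1, the cytochrome c1 of complex III, at 141 ± 2.95, and Sdha, the flavoprotein of complex II, at 121 ± 2.74 CPM per kb in female controls. Cyc1 lay close to the core protein Uqcrc1 at 136 ± 2.72, a gap smaller than the sum of their SDs. Atp5a1 and the beta subunit Atp5b at 314 ± 6.75 differed by more than theirs, but this order depended on length. Before division by length Atp5b was higher, at 1331 ± 28.6 CPM against 1107 ± 15.3 for Atp5a1 in female controls. The exon lengths used, 4.237 kb for Atp5b and 3.135 kb for Atp5a1, exceed those of the transcripts used for copied windows below. The SDs do not cover this choice, so rankings per kb within a complex are uncertain where these lengths differ. Complex I assembly factors were lower than most subunits, from 3.36 ± 0.404 for Ndufaf6 to 27.96 ± 0.916 CPM per kb for Ndufaf3.

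Complex IV subunits with tissue isoforms showed 1 major form each. Cox4i2, the isoform of lung and smooth muscle, stood at 2.68 ± 0.618 CPM per kb in female controls beside 877 ± 58.6 of Cox4i1. The heart and muscle isoforms Cox6a2 and Cox7a1 stood at 10.6 ± 1.89 and 2.497 ± 0.512, beside 389 ± 35.4 of Cox6a1 and 129 ± 9.21 of Cox7a2. Cox6b2, known from testis, stood at 1.85 ± 0.412 beside 310.2 ± 25.6 of Cox6b1, and Ndufa4l2, a hypoxia-responsive relative, at 5.14 ± 0.439 beside 199 ± 9.88 of Ndufa4. Each minor isoform lay far below its partner, beyond the SDs of both, and the order was the same in male controls.

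The lowest levels belonged to subunits of the common enzyme, not to tissue isoforms. Ndufab1, the mitochondrial acyl carrier protein, was counted at 0.152 ± 0.0404 CPM per kb, Atp5l at 0.599 ± 0.173, Uqcrb at 0.779 ± 0.178 and Ndufs3, a core subunit of complex I, at 1.28 ± 0.166 in female controls. Atp5g1, Atp5g2 and Atp5g3 encode the same mature c-ring protein, and they stood at 0.654 ± 0.108, 0.652 ± 0.302 and 122 ± 3.86. Copies elsewhere in the genome were counted as the share of 50-base windows of the transcript, the length of a read, that occur with at most 2 mismatches outside the gene's own locus in mm9. This share was 100% for Atp5g2, 95.9% for Atp5l, 92.4% for Uqcrb and 83.9% for Ndufs3, but 14.5% for Ndufab1, 33.1% for Atp5g1 and 4.01% for Atp5g3. The 50 members with fewer than 10% of such windows had a median level over all female libraries of 53.5 CPM per kb, and the 17 members with at least 50% had 8.80. Levels of members with many copies are uncertain, since how reads with several matches were treated is not given in the sources used here.

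**Figure D1:**
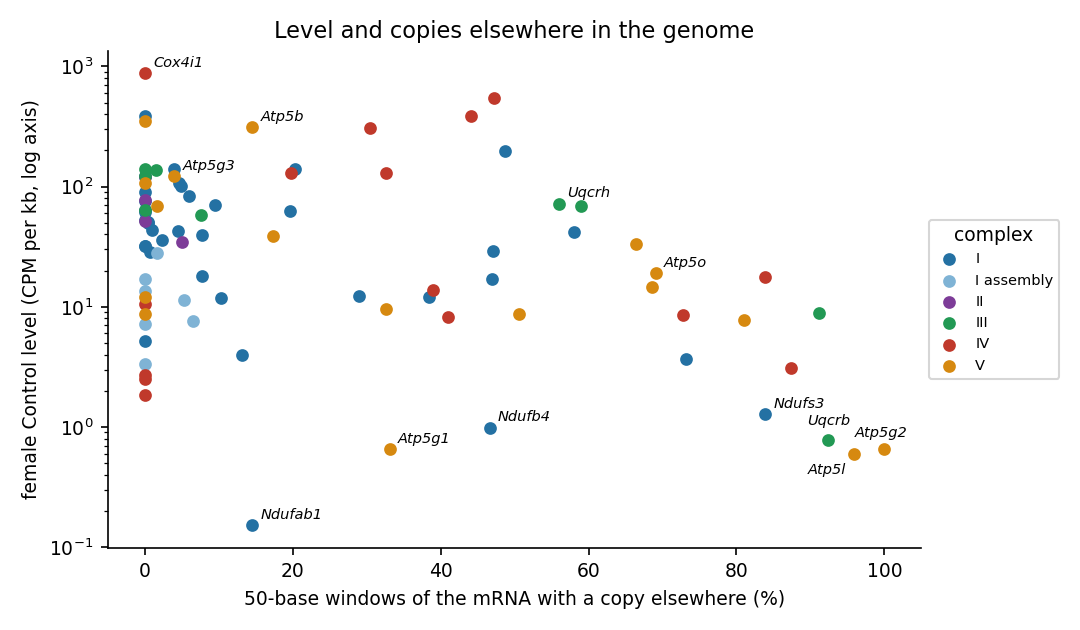
Each point is 1 of the 89 genes, coloured by complex, with the share of its 50-base transcript windows that have a copy elsewhere in mm9 on the x axis (%) and its mean level in the 6 female Control libraries on the y axis (CPM per kb of exon, log axis). Cox4i1 is highest at 877 with no copied window, and Uqcrb, Atp5l and Atp5g2 lie between 0.599 and 0.779 CPM per kb at 92.4% or more of windows.

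The 89 genes together took a small share of all counts, and it was higher in exposed animals. In the female table the share was 0.887 to 0.947% in Control, 0.968 to 1.06% in ExposedNic and 0.991 to 1.013% in ExposednoNic libraries, and neither exposed group overlapped with Control. In the male table it was 0.856 to 0.900% in Control, 0.886 to 0.952% in ExposedNic and 0.935 to 0.988% in ExposednoNic libraries. There the ExposednoNic group did not overlap with Control and the ExposedNic group did. These are shares of raw totals. After TMM normalization, which sets library sizes by the bulk of genes, the summed CPM was 9404 ± 263 (SD, n = 6), 9862 ± 405 (n = 5) and 9822 ± 130.3 (n = 5) in female Control, ExposedNic and ExposednoNic libraries. In male libraries it was 8884 ± 215 (n = 6), 9050.4 ± 271 (n = 6) and 9531 ± 342 (n = 5). By these sums both exposed female groups overlapped with Control: Control reached 9686 CPM, and ExposedNic and ExposednoNic began at 9459 and 9629. The male ExposednoNic libraries, from 9244 CPM, still lay above Control, which reached 9094.

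**Figure D2:**
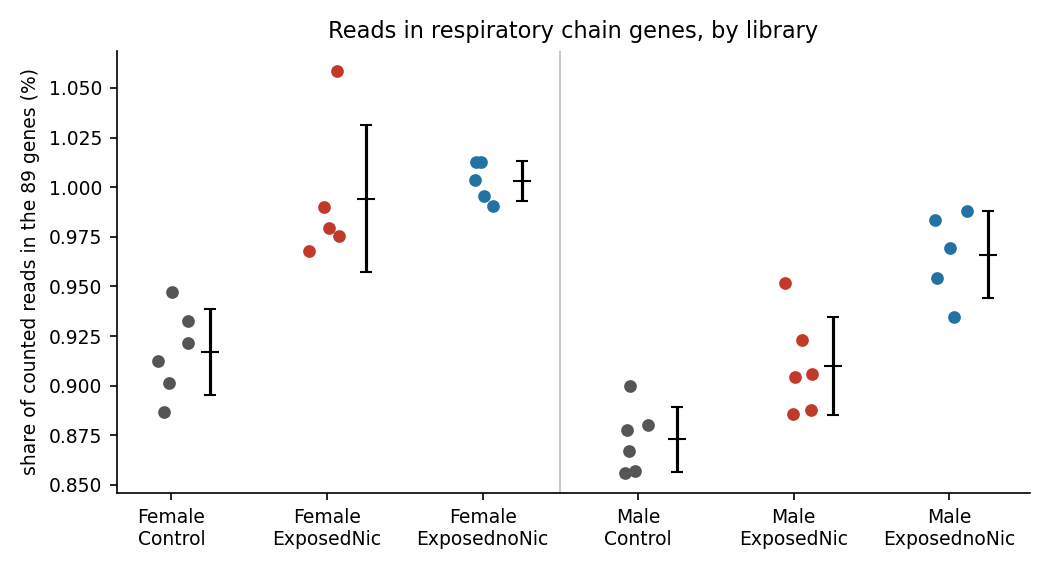
Each point is the share of a library's counted reads that fell in the 89 respiratory chain genes (%), by sex table and group, and the bars give the mean ± SD. Control libraries lie at 0.887 to 0.947% in the female and 0.856 to 0.900% in the male table, below every ExposednoNic library of the same table. The shares are of raw totals, and after TMM normalization the summed CPM of the exposed female groups overlapped with Control.

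Members also varied little among libraries of a group: the median within-group SD on the log2 scale was 0.070 in females and 0.072 in males for members of at least 10 CPM, beside 0.10 and 0.10 for all genes of at least 10 CPM.

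The comparison of nicotine-free aerosol with air asks what the aerosol does apart from nicotine. In males, 15 of the 89 genes rose and 0 fell (edgeR quasi-likelihood test, adjusted p below 0.01), where 6.15% of all 15293 genes tested were called higher and 7.47% lower. Of the 15, 10 belong to complex I, and complexes II, III and V gave 1, 2 and 2. In females, 6 genes rose and 0 fell, beside 5.03% and 7.03% of 15158 genes, so that the female share of 6.74% is near the background and the male share of 16.9% above it. The changes were small: the median log2 fold change was 0.12 in males and 0.075 in females, beside 0.016 and 0.0092 over all genes tested. The estimate was positive for 83 of 89 genes in males and 76 in females. The ExposednoNic libraries lay wholly above Control for 22 members in males, beside 5.48% of all genes, and for 15 in females, beside 4.4%. They lay wholly below Control for 0 members in both tables, beside 6.94% and 6.27%. Of the 50 members with under 10% of copied windows, 12 rose in males and 5 in females.

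The counts depended on scaling and on whether a marker level was in the fit. By library totals in place of TMM, 38 members rose in males, beside 9.97% higher and 5.42% lower over all genes, and 26 in females, beside 9.23% higher and 4.74% lower. At the same time the share of higher calls among all genes called went from 45.2% to 64.8% in males and from 41.7% to 66.1% in females. With the mean cortical glutamatergic marker level as a covariate, 0 members were called in any comparison with Control, and 14 higher and 0 lower of all genes in males and 0 higher and 0 lower in females. The member medians were then 0.13 and 0.087 in males and females, beside 0.12 and 0.075 without the covariate. The marker sums of Control and ExposednoNic libraries did not overlap in either table. The covariate thus went with exposure, and its fit cannot tell a part of the marker level from lost precision. DESeq2 called 14 members higher in females, where it called 7.18% higher and 9.92% lower of all genes, and 19 in males, where it called 7.4% higher and 9.76% lower.

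**Figure D3:**
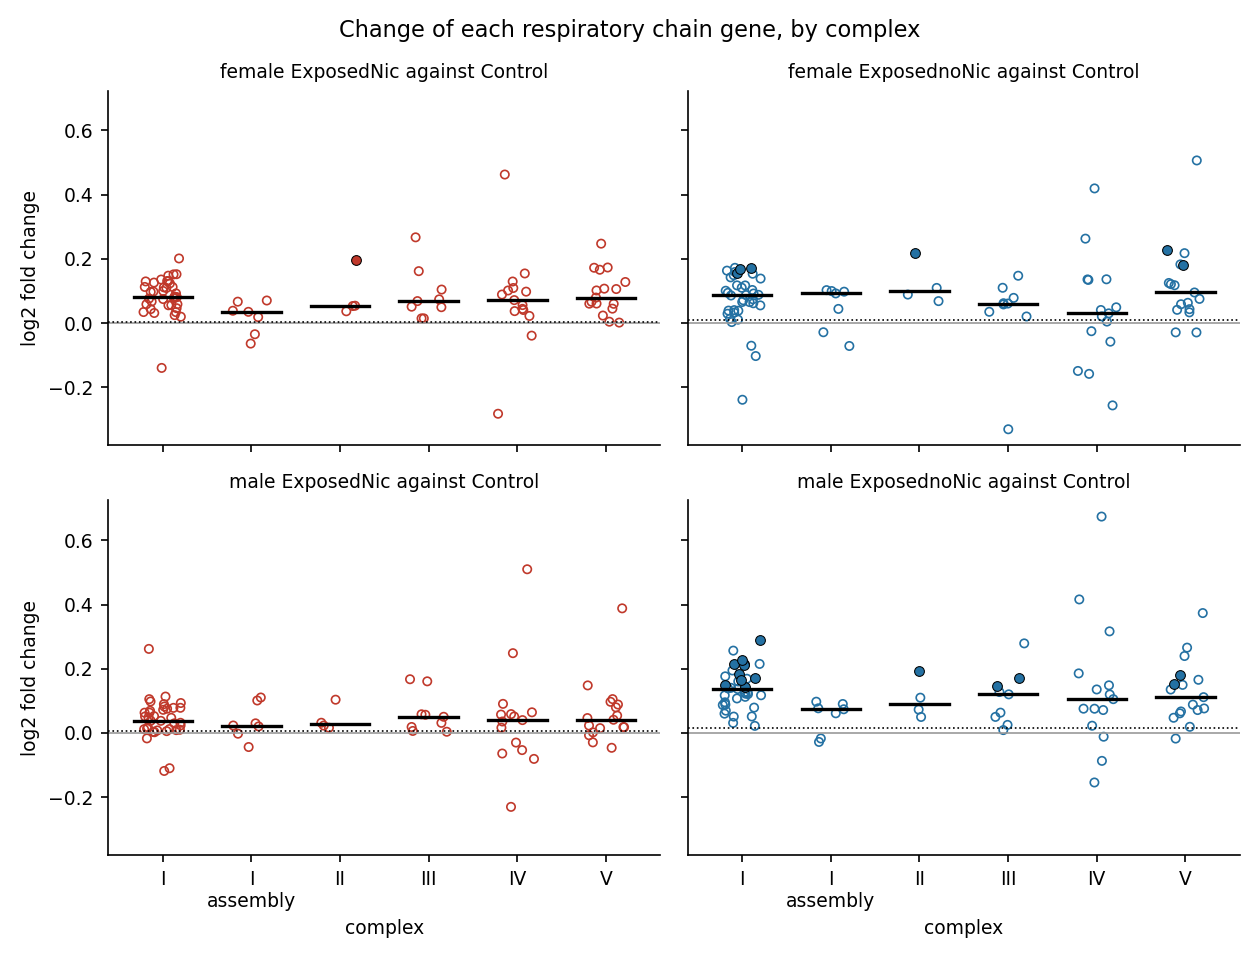
Log2 fold change against Control (y axis) of each respiratory chain gene by complex (x axis), in 1 panel per comparison. Filled points passed the test (adjusted p below 0.01), open points did not, bars mark the median of a complex and the dotted line the median of all genes. All 37 complex I genes lie above 0 in male ExposednoNic libraries, and filled points appear for 1, 6, 0 and 15 genes in female ExposedNic, female ExposednoNic, male ExposedNic and male ExposednoNic libraries.

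Sdhc, Ndufa6, Ndufb5, Atp5g3 and Atp5o rose in the ExposednoNic groups of both tables. Sdhc (chr1:173057296-173080734, mm9, minus strand) encodes a membrane anchor of succinate dehydrogenase. Its normalized CPM was 107 (lowest), 113 (median) and 116 (highest) in female Control libraries, 129.7, 126, 124, 122 and 139 in ExposedNic and 123, 132, 131, 129 and 136 in ExposednoNic libraries. In male Control libraries it was 102 (lowest), 107 (median) and 111 (highest), in ExposedNic libraries 107 (lowest), 115 (median) and 123 (highest), and in ExposednoNic libraries 120.1, 126, 120.3, 126 and 118. All exposed female libraries and all male ExposednoNic libraries lay above the Control libraries of their table, while the male ExposedNic libraries overlapped with them. The change without nicotine was 0.22 ± 0.039 (log2, SE), adjusted p = 0.00135 in females and 0.19 ± 0.037 (log2, SE), adjusted p = 0.000941 in males.

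Ndufa6 (chr15:82180569-82184721, minus strand) encodes an accessory subunit of the matrix arm of complex I. It was counted at 52.9 (lowest), 56.3 (median) and 60.7 (highest) CPM in female Control and at 61.5, 65.7, 62.7, 64.0 and 64.1 in ExposednoNic libraries. The male values were 50.6 (lowest), 52.3 (median) and 56.2 (highest) in Control and 66.4, 61.7, 60.4, 59.1 and 59.9 in ExposednoNic libraries. Neither pair of groups overlapped, and the change was 0.17 ± 0.037 (log2, SE), adjusted p = 0.00424 in females and 0.21 ± 0.040 (log2, SE), adjusted p = 0.000766 in males. Ndufb5 (chr3:32635912-32650488, plus strand), an accessory subunit of the membrane arm, was counted at 98.3 (lowest), 99.3 (median) and 106 (highest) CPM in female Control and at 109, 115, 114, 111 and 117 in ExposednoNic libraries. Male values were 86.6 (lowest), 93.8 (median) and 96.0 (highest) and 104, 110.1, 100.1, 106 and 97.98. The groups did not overlap in either table, with a change of 0.17 ± 0.035 (log2, SE), adjusted p = 0.00287 in females and 0.17 ± 0.039 (log2, SE), adjusted p = 0.00373 in males. When each library was left out in turn, the female calls of Ndufa6 and Ndufb5 were kept in 11 and 13 of 16 fits, with adjusted p of up to 0.0159 and 0.0111, and the male calls in 17 and 15 of 17.

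Atp5g3 and Atp5o belong to complex V, the first to the ring in the membrane and the other to the stalk. Atp5g3 (chr2:73746504-73749383, minus strand) encodes the c-ring subunit, and its normalized CPM was 255 (lowest), 266 (median) and 279 (highest) in female Control and 295, 312, 308, 309 and 336 in ExposednoNic libraries. In males it was 242 (lowest), 262 (median) and 269 (highest) and 291, 310.3, 283, 299.6 and 272. The groups did not overlap, and the change was 0.23 ± 0.043 (log2, SE), adjusted p = 0.0018 in females and 0.18 ± 0.046 (log2, SE), adjusted p = 0.00788 in males. Atp5o, which encodes the subunit OSCP and whose annotated span (chr16:91684643-91931932) takes in Donson, was counted at 41.0 (lowest), 42.9 (median) and 45.5 (highest) CPM in female Control and 48.2, 49.4, 48.9, 49.4 and 49.0 in ExposednoNic libraries, and at 40.4 (lowest), 41.3 (median) and 42.8 (highest) and 44.7, 45.6, 47.7, 46.2 and 45.6 in males. These groups did not overlap either, with a change of 0.18 ± 0.041 (log2, SE), adjusted p = 0.00468 and 0.15 ± 0.037 (log2, SE), adjusted p = 0.00605. The Atp5o value is uncertain, since 69.1% of its windows have copies elsewhere and 12.7% of its exon sequence is shared with Donson on the same strand. When each library was left out in turn, the male call of Atp5g3 was kept in 5 of 17 fits and that of Atp5o in 10 of 17, with adjusted p of up to 0.0277 and 0.0218. The female call of Atp5o was kept in 9 of 16 fits (up to 0.0153) and that of Atp5g3 in 16 of 16.

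**Figure D4:**
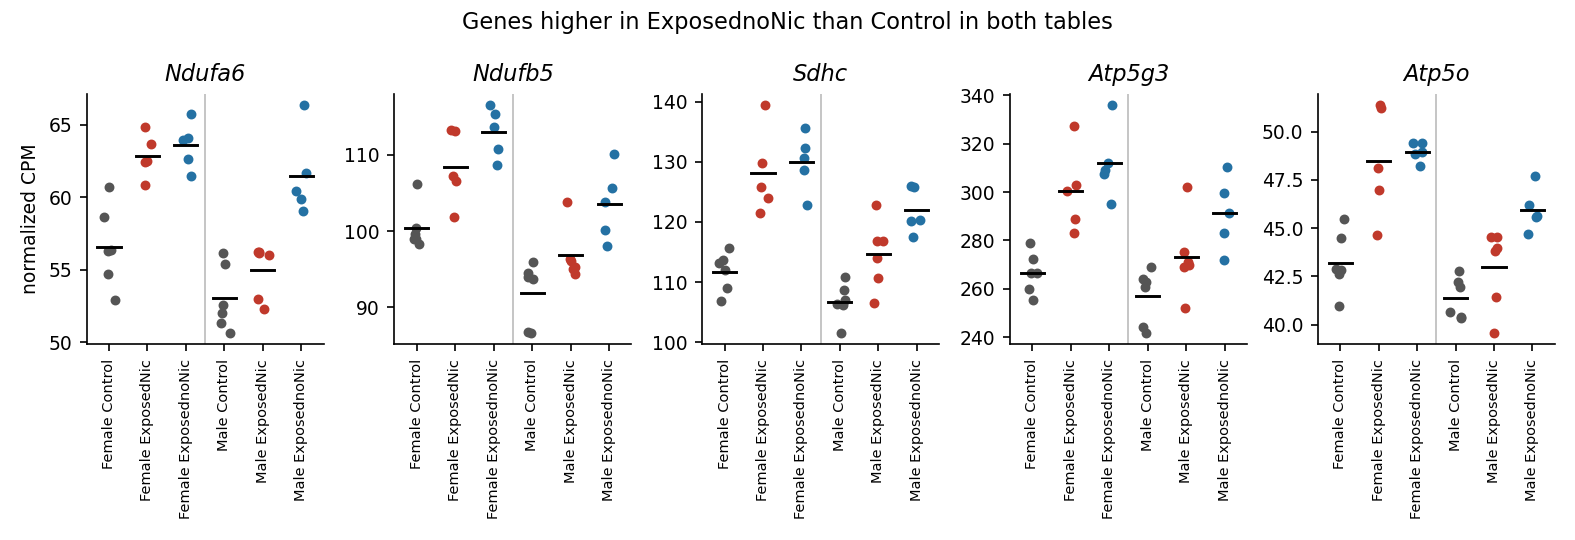
Normalized CPM of the 5 genes that rose in ExposednoNic libraries of both tables, with 1 point per library and a bar at the group mean. The y axes do not start at 0. In each panel the ExposednoNic points lie above all Control points of the same table.

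The 10 complex I genes called in males were Ndufs7, a core subunit, and 9 accessory subunits. Ndufs7 (chr10:79711866-79719539, plus strand) carries the last iron-sulfur cluster before ubiquinone and was counted at 44.6 (lowest), 46.9 (median) and 49.3 (highest) CPM in Control and 51.7, 59.7, 53.3, 51.4 and 55.2 in ExposednoNic libraries, a change of 0.21 ± 0.043 (log2, SE), adjusted p = 0.00138. Ndufa11 (chr17:56857185-56863671, plus strand), a subunit of the membrane arm, had the smallest p of all members with 41.8 (lowest), 43.6 (median) and 46.5 (highest) CPM in Control and 51.8, 51.7, 49.6, 51.4 and 49.4 in ExposednoNic libraries, a change of 0.21 ± 0.036 (log2, SE), adjusted p = 0.000344. Ndufc1 (chr3:51208599-51212910, minus strand), another small membrane subunit, had the largest change among the called genes, from 15.7 (lowest), 16.4 (median) and 18.04 (highest) CPM to 19.3, 19.5, 20.01, 21.6 and 21.3, that is 0.29 ± 0.065 (log2, SE), adjusted p = 0.00325. In each of the 3 genes every ExposednoNic library lay above every Control library, and of the 15 called genes Ndufb10 was the 1 whose groups overlapped. The other called accessory subunits were Ndufa2, Ndufa3, Ndufa8, Ndufa13 and Ndufb10, with log2 changes from 0.14 (Ndufa8) to 0.23 (Ndufa3) and adjusted p from 0.00171 to 0.00425. The call of Ndufb10 was kept in 12 of 17 fits that left out 1 library (adjusted p up to 0.0178). For Ndufa13, 30.2% of exon sequence is overlapped by Tssk6 on the opposite strand, and whether counting used strand is not given in the sources used here.

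Not all core subunits of complex I passed the test. Ndufv2, a flavoprotein subunit of the NADH-oxidising module, rose in females from 97.7 (lowest), 101.2 (median) and 106 (highest) CPM in Control to 107, 114, 112, 114 and 116 in ExposednoNic libraries, a change of 0.15 ± 0.034 (log2, SE), adjusted p = 0.0041. The female call was kept in 11 of 16 fits that left out 1 library, with an adjusted p of up to 0.0165. In males its change was 0.14 ± 0.046 (log2, SE), adjusted p = 0.0327. Ndufs1, Ndufs8 and Ndufv1 had male changes of 0.070 ± 0.050, 0.12 ± 0.037 and 0.087 ± 0.036, with adjusted p from 0.0216 to 0.339. Ndufs3 had 0.051 ± 0.11 in males and -0.10 ± 0.13 in females. The 7 assembly factors gave no call, with medians of 0.074 in males and 0.092 in females.

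Complex III gave 2 calls in males. Cyc1 (chr15:76173953-76176364, plus strand) was counted at 155 (lowest), 164 (median) and 169 (highest) CPM in Control and 186, 185, 178, 178 and 179 in ExposednoNic libraries without overlap, a change of 0.15 ± 0.030 (log2, SE), adjusted p = 0.00171. Uqcrh, the hinge protein that docks cytochrome c, was counted at 81.2 (lowest), 83.0 (median) and 88.8 (highest) and 92.8, 92.3, 96.5, 99.0 and 90.9, a change of 0.17 ± 0.037 (log2, SE), adjusted p = 0.00268, with 56.0% of windows copied elsewhere. Female changes of both genes had the same sign, 0.11 ± 0.036 and 0.15 ± 0.043, with adjusted p of 0.0349 and 0.0201. The core proteins Uqcrc1 and Uqcrc2 and the Rieske protein Uqcrfs1 did not pass, at 0.063 ± 0.034, 0.025 ± 0.045 and 0.050 ± 0.047 in males. In complex II, Sdha, Sdhb and Sdhd had 0.073 ± 0.034, 0.050 ± 0.035 and 0.11 ± 0.043 in males and 0.089 ± 0.036, 0.068 ± 0.034 and 0.11 ± 0.031 in females, so that Sdhc alone passed among its 4 genes.

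In complex IV, which hands electrons to oxygen, 0 of 15 genes passed in either table. Its median was 0.030 in females, with 10 of 15 positive, and 0.11 in males, with 12 of 15 positive. Cox8a, an abundant small subunit, was counted at 258 (lowest), 293 (median) and 352 (highest) CPM in female Control and 318, 246, 257, 277 and 243 in ExposednoNic libraries, and these groups overlapped. Cox4i1 had 0.0045 ± 0.062 in females and 0.12 ± 0.044 in males (adjusted p = 0.969 and 0.0516). Cox5a, Cox5b and Cox6c had 0.13 ± 0.044, 0.26 ± 0.12 and -0.025 ± 0.072 in females and 0.076 ± 0.066, 0.32 ± 0.14 and 0.15 ± 0.064 in males. Minor isoforms such as Cox6b2 and Cox7a1 had wide errors, as did Cox5b. Cox6b2 was counted at 0.467 to 0.978 CPM in male Control and 0.962 to 1.56 in ExposednoNic libraries, a change of 0.67 ± 0.20 (log2, SE), adjusted p = 0.0199, and at 0.14 ± 0.17 in females. Cox7a1 had 0.42 ± 0.18 in females and 0.42 ± 0.17 in males, with adjusted p of 0.103 and 0.0882. Negative estimates in both tables were seen for 5 members, Atp5h, Cox4i2, Cox6a2, Cox8a and Ndufaf1, none past the test, and the largest was Cox6a2 in females at -0.26 ± 0.12 (adjusted p = 0.145).

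In complex V the subunits of the catalytic head and its shaft did not pass. Atp5a1 (alpha), Atp5b (beta, which holds the catalytic sites) and Atp5c1 (gamma, the shaft) had 0.047 ± 0.045, 0.11 ± 0.043 and 0.071 ± 0.053 in males and 0.063 ± 0.037, 0.059 ± 0.040 and 0.12 ± 0.043 in females. The other c-ring genes, Atp5g1 and Atp5g2, had 0.10 ± 0.10 and 0.12 ± 0.30 in females and 0.067 ± 0.10 and 0.37 ± 0.26 in males, so that the c-ring gene with the highest level was also the one that passed. The medians of the complexes in males ran from 0.14 (complex I) through 0.12 (III), 0.11 (V) and 0.11 (IV) to 0.091 (II). In females they were 0.10 (II), 0.10 (V), 0.087 (I), 0.061 (III) and 0.030 (IV). Differences between complexes were not tested.

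The comparison of nicotine aerosol with air gave fewer calls. In females, Sdhc alone rose and 0 members fell, beside 1.98% and 2.32% of all genes called higher and lower, and its change was 0.20 ± 0.039 (log2, SE), adjusted p = 0.00449. This call was kept in 10 of 16 fits that left out 1 library, with an adjusted p of up to 0.0137. DESeq2 called 8 members higher (all genes 3.64% higher and 5.07% lower), library totals gave 8 (all genes 2.73% higher and 1.52% lower), and the marker covariate gave 0 (all genes 0% higher and 0% lower). The median over members was 0.074, beside 0.0041 over all genes, and 84 of 89 estimates were positive. Members with libraries wholly above Control numbered 6, beside 3.07% of all genes, and 0 lay wholly below, beside 3.6%. Ndufa6, next in order of p, stood at 62.4, 63.7, 62.5, 60.8 and 64.9 CPM against 52.9 to 60.7 in Control, a change of 0.15 ± 0.037 (log2, SE), adjusted p = 0.0144. The lower members with the smallest p were Cox6a2 at -0.28 ± 0.13 and Ndufaf1, a complex I assembly factor, at -0.064 ± 0.051, and neither passed.

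In males, 0 members were called in ExposedNic against Control, and 0% of all genes were called in either direction by edgeR. At an unadjusted p under 0.05, 8 members were higher and 0 lower, beside 7.02% and 7.38% of all genes. DESeq2 also called 0 members, and of all genes it called 0.379% higher and 0.66% lower. The median was 0.038, beside 0.0065 over all genes, and 76 of 89 estimates were positive. Members not overlapping with Control numbered 0 above and 0 below, beside 0.804% and 1.24% of all genes. Sdhc and Ndufc2 had the smallest p among higher members, at 0.10 ± 0.035 (log2, SE), adjusted p = 0.176 and 0.093 ± 0.035 (log2, SE), adjusted p = 0.229, and Ndufa12 and Cox4i2 among lower ones, at -0.11 ± 0.059 and -0.23 ± 0.15. Without the library labelled replicate 21 the median was 0.046, 77 of 89 estimates were positive, 0 members were called and Sdhc had 0.10 ± 0.038.

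Nicotine and nicotine-free aerosol were compared directly in each table. In females 0 members and 0% of all genes were called in either direction. At an unadjusted p under 0.05, 1 member was higher and 0 lower, beside 3.68% and 4.68% of all genes, and DESeq2 called 0 members and 0 genes in all. The member median was -0.0058. In males 0 members were called higher or lower, beside 0.222% and 0.0262% of all genes, but the estimates leaned one way: 80 of 89 were negative with a median of -0.080, beside -0.0053 over all genes. At an unadjusted p under 0.05, 27 members were lower and 0 higher in ExposedNic than in ExposednoNic libraries, beside 9.85% and 10.2% of all genes. DESeq2 called 2 members lower, and of all genes 2.04% higher and 0.942% lower. Ndufa2, a small subunit of complex I, had the smallest p, at -0.16 ± 0.038 (log2, SE), adjusted p = 0.0265. Without replicate 21 the median was -0.069 and 0 members were called, while the calls over all genes went from 34 higher and 4 lower to 4 higher and 1 lower. Both exposed groups of a table were compared with the same Control libraries, so their changes are not independent.

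A fit with 6 group means over 15105 genes asked whether the changes differed between the sex tables. For ExposedNic and ExposednoNic alike, 0 members and 0% of all genes differed by edgeR, with smallest adjusted p over members of 0.728 and 0.945. At an unadjusted p under 0.05, 4 and 2 members differed, beside 6.47% and 4.91% of all genes. The greater number of calls in male ExposednoNic libraries is thus not shown to be a difference between the tables.

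Other genes of energy metabolism give the setting. Over all genes tested, 6.15% were called higher and 7.47% lower in male ExposednoNic libraries, and 5.03% and 7.03% in female ones. Of 29 assembly factors outside the symbols above, 2 rose in male and 1 in female ExposednoNic libraries, with medians of 0.044 and 0.039. Of 18 genes of the TCA cycle and pyruvate dehydrogenase, 0 and 2 rose, with medians of 0.046 and 0.058. All 14 carriers of the inner and outer membrane had positive estimates in both, 1 and 0 of them called, and 0 of 13 regulators of mitochondrial biogenesis were called. Of 16 glycolytic genes, 4 fell in male and 2 in female ExposednoNic libraries and 0 rose, with medians of -0.072 and -0.021. Ribosomal protein genes also leaned upward, with male medians of 0.087 over 76 cytosolic and 0.066 over 73 mitochondrial genes, and female medians of 0.11 and 0.071.

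**Figure D5:**
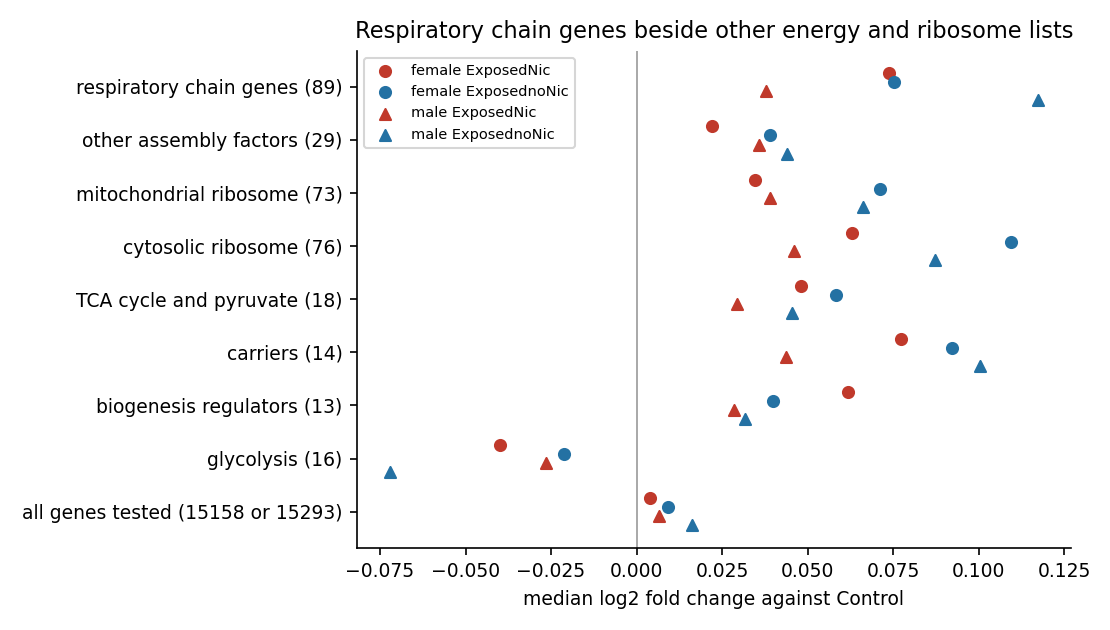
Median log2 fold change against Control (x axis) of the respiratory chain genes and 7 other lists and of all genes tested, with the number of genes in brackets, for 4 comparisons. Circles are the female and triangles the male table, red is ExposedNic and blue ExposednoNic. The respiratory chain genes reach 0.12 in male ExposednoNic libraries, where glycolysis stands at -0.072.

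Short genes as a whole leaned upward in the ExposednoNic groups, and many respiratory chain genes are short. Among genes with at most 1 kb of exon, the male ExposednoNic median was 0.084 over 564 genes and 0.14 over 32 members. Among genes of 1 to 2 kb it was 0.057 and 0.11, and from 2 to 4 kb 0.027 and 0.089. In female ExposednoNic libraries the short genes had 0.069 over all and 0.073 over members, and from 2 to 4 kb 0.017 and 0.081. The part of gene length in the calls was not tested.

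Cell type markers moved in the same libraries. In female ExposedNic libraries, where Sdhc was called, myelin markers summed to 13106 to 16708 CPM and cholinergic markers to 93.3 to 207, with 8 of 8 and 7 of 7 genes called higher and 1 of 12 cortical glutamatergic genes called lower. All 9 striatal projection neuron markers had positive estimates there, with a median of 0.75 and 3 called higher. Cholinergic markers (7 genes) summed to 40.5 to 88.6 CPM in male Control and 122 to 254 in ExposednoNic libraries, and to 22.9 to 89.2 and 114 to 296 in females. Myelin markers (8 genes) summed to 9173 to 11215 and 13405 to 22877 in males and 7977 to 9595 and 10726 to 16029.9 in females. Striatal projection neuron markers (9 genes) summed to 1570.0 to 2757 and 1865 to 5023 in males and to 1129 to 2746 and 2169 to 2739 in females, with overlap in both. All 9 genes had positive estimates in both tables, with medians of 0.72 in males and 0.46 in females, and 2 and 1 of them were called higher. Interneuron markers (6 genes) summed to 799 to 966 and 1002 to 1457 in males and 723 to 922 and 938 to 1258 in females without overlap, although the 6 genes did not move one way, with 2 called higher and 1 lower in male and 3 called higher and 1 lower in female ExposednoNic libraries. Choroid plexus markers (4 genes) summed to 11.8 to 37.7 and 27.4 to 929 in males with overlap, and the median sum of the male ExposednoNic libraries was 33.8. All 4 genes had positive estimates in males (median 2.39) and 2 were called higher, whereas in females 2 of 4 were positive and 0 were called. Cholinergic and myelin sums did not overlap between Control and ExposednoNic libraries. Astrocyte, microglia and endothelial sums overlapped between these groups, at 10770.4 to 12566 and 10522 to 12392, 696 to 796 and 643 to 833, and 433 to 509.5 and 405 to 474 in males. No listed marker was at 0 throughout a group, and of the 12 cortical glutamatergic genes 10 fell in male and 11 in female ExposednoNic libraries. In male ExposedNic against ExposednoNic libraries, all 8 myelin and all 7 cholinergic markers had negative estimates (medians -0.50 and -0.54), with 0 called. Of the 12 cortical glutamatergic genes 11 had positive estimates in that comparison (median 0.54), and 2 were called higher. The part of these cell types in the respiratory chain values was not tested, and the covariate given above could not test it, since it went with the groups.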

How the data were processed

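Frontal cortex RNA of 33 mice was sequenced by the authors as single 50-base reads, with the sexes in separate runs. Per the labels and the study's methods, reads were aligned with Bowtie to the mm9 transcriptome, PCR duplicates were removed with SAMtools and reads were counted per gene with HTSeq, and the deposited values are raw counts per gene for 23366 genes, 1 table per sex. The strand setting and the treatment of reads with several matches are not given in the sources used here. Removing duplicates can lower the counts of short, highly expressed genes most, and many respiratory chain genes are short. Yet Cox4i1, whose transcript holds 630 windows of 50 bases, had 12462 to 16320 counts in female Control libraries. That is more than 1 read per start position and strand allows, so how far duplicates were removed from these counts is uncertain. Of 34 count columns, 1 matched no sample used here and was left out.

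Each table was fitted with edgeR 4.0.16 (R 4.3.3; TMM, glmQLFit and glmQLFTest, 3 groups, no covariates) on genes with summed CPM of at least 5. P-values were adjusted by Benjamini-Hochberg over all genes tested, and every adjusted p in the text comes from this two-sided fit unless DESeq2 1.42.0 is named. CPM values use TMM library sizes. A gene was called at adjusted p below 0.01, and the 2 tables were joined in 1 fit for differences between them. Libraries come from separate litters within a table. No libraries of the same group were repeats: over 75 pairs within groups, chi-square per degree of freedom was 4.63 or more. Pairs from different groups were not compared in this way. The fit was tested on simulated data, where 191 of 200 genes changed by 1 on the log2 scale were recovered in the female and 190 in the male table. Called members changed by at most 0.29, so this recovery does not tell how often changes of the size seen here would be found.

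Members and lists were chosen with earlier results of these data known. Genes named in the text are the called members, the 2 higher and 2 lower members with the smallest p in each comparison with Control, core subunits, isoforms and those with extreme levels, and the values of 1 core subunit are not reported here. Other normalizations, filters, DESeq2, a marker covariate, a replicate block and leaving out each library were tried, and scaling by library totals was chosen after seeing the data.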

Additional observations from a re-analysis of the deposited data

Results flagged for a closer look

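In 8 of 138 groups of libraries tested, 1 library stood apart from the rest of its group by Dixon's gap test, and chance gives about 1 in 20. Female ExposedNic replicate 6 was highest for summed complex V genes, at 3796 CPM with the next library at 3557, and for Uqcrh, at 111 with the next at 98.6. Female Control replicate 4 was highest for Ndufb5, at 106 with the next at 100.4 CPM, and for Ndufb10, at 118 with the next at 109.9. Female Control replicate 5 was lowest for Ndufa3, at 39.7 CPM with the next at 45.1. Female ExposednoNic replicate 2 was lowest for Ndufs7, at 51.6 CPM with the next at 53.8. In males, replicate 22 of ExposedNic was highest for Ndufb5, at 104 CPM with the next at 96.4, and replicate 5 of ExposednoNic was highest for Ndufa8, at 110.6 CPM with the next at 105.0. No cause of these gaps was tested.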

How the results depend on the processing

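No alternative turned the sign of any of the called genes, and 0 members were called lower in any comparison with Control. Members called higher in female ExposedNic against Control, 1 with edgeR, numbered 8 with DESeq2, 5 with upper quartile normalization (all genes 372 higher and 242 lower), 8 with library totals, and 0 with the marker covariate. In female ExposednoNic libraries the 6 became 14 with DESeq2, 26 with library totals and 0 with the covariate. In male ExposednoNic libraries the 15 became 38 with library totals and 0 with the covariate. With the covariate, calls over all genes also went to 0 in these female comparisons with Control, and to 14 higher and 0 lower in male ExposednoNic libraries. In male ExposedNic against ExposednoNic, 2 members were called lower by DESeq2. With library totals the member medians were 0.12, 0.14 and 0.16 in these 3 comparisons with Control, beside all-gene medians of 0.052, 0.076 and 0.062.

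Leaving out 1 library gave 0 to 2 members called higher in female ExposedNic (0 without Control replicate 5 or 6, or ExposedNic replicate 1, 2 or 6), 2 to 8 in female ExposednoNic (3 without Control replicate 6, 2 without ExposednoNic replicate 2, 3 or 5) and 11 to 17 in male ExposednoNic libraries. Calls over all genes in these fits are not given here, so these counts cannot be set against the background. Same-numbered female libraries share only a number: their deviations correlated at -0.27 to 0.27 over 14 pairs, 4 of them over 0.1, and 7 of 16 libraries correlated best with their own number. With the replicate block, 0 members were called in female ExposedNic and 1 in female ExposednoNic libraries (all genes 81 higher and 55 lower, and 300 higher and 436 lower). Male groups share no numbers, so no block was fitted there. Precision is limited by 5 or 6 libraries per group, and by depth for members of about 1 CPM such as Cox6b2. The cause of the differences between settings was not tested.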
